A study of Mus musculus with 6 samples.

Results

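Spliceosome and SR protein genes were followed in mouse oocytes and early embryos labelled as wild-type or YAP-null. The set holds 72 of the 23308 gene symbols in the tables, chosen by name alone: symbols that begin with Snrp, Sf3a, Sf3b, Srsf, Lsm, Prpf or Hnrnp, with a digit after the stem of all but Snrp and Hnrnp. They comprise 12 Snrp genes for the Sm ring and proteins particular to the U1 and U2 snRNPs, 10 Lsm genes, 8 SF3a and SF3b subunits, 13 Prpf genes, 11 Srsf genes and 18 Hnrnp genes. For Srsf and Lsm only digits could follow the stem, so Lsm14a, Lsm14b and Lsmd1 fell outside the rule. Splicing genes listed under other stems (Snrnp, Hnrpdl, Hnrpll) were outside it too. Each of the 72 symbols had a single locus, and the level of each was read in FPKM, fragments normalised to transcript length and to the mapped total, in all 6 libraries.

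The groups were YAP-null oocytes at the germinal vesicle (GV) stage (genotype YAP-/-, Yap1 deleted, 2 libraries), wild-type GV oocytes (2 libraries), YAP-null 4-cell embryos (1 library) and wild-type 4-cell embryos (1 library). All came from females of ICR background aged 21 to 23 days that had been injected with PMSG and hCG, hormones that drive follicle growth and ovulation, and females giving embryos were mated. Each library was made from a pool of 60 oocytes or embryos. Neither the males' genotype nor the means of deleting Yap1 is given in the sources used here. The source field names GV oocytes for the 4-cell samples too, whereas their titles and stage fields say 4-cell embryo, and the titles were followed. By the series title the study asks about YAP, a transcriptional coactivator held in check by Hippo signalling, in the first transcription of the embryo.

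The spliceosome removes introns from pre-mRNA. It is assembled from small nuclear ribonucleoproteins (snRNPs): an Sm ring sits on the U1, U2, U4 and U5 RNAs and an Lsm ring on U6. U1 recognises the 5′ splice site, U2 with its SF3a and SF3b subcomplexes binds the branch point, and Prpf proteins serve the tri-snRNP and the remodelling steps. SR proteins bind exonic enhancers and mostly favour exon inclusion, while hnRNP proteins coat nascent RNA and often oppose it. Fully grown GV oocytes are almost silent in transcription and live on stored RNA, much of which is destroyed after fertilisation as the embryonic genome becomes active. FPKM is a share of each library, here of polyadenylated RNA. A change in RNA per cell, in polyadenylation, in the number of cells and in the stored RNA around a gene cannot be told apart.

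Yap1 was at 10.8 and 10.04 FPKM in the YAP-null GV libraries against 248 and 154 FPKM in wild-type ones, with 33.3 (YAP-null) against 89.7 FPKM (wild-type) at the 4-cell stage. The 33.3 FPKM of the 4-cell library labelled YAP-null lay below every wild-type value but above both YAP-null GV values. The label thus does not stand for a lack of Yap1 RNA there. The source of this RNA was not tested, and the males' genotype is not given. FPKM summed to between 362849 and 462324 per library, and 9984 to 10823 genes reached 1 FPKM. Mir762 alone held 19.1% of the sum of YAP-null GV library 1. The tables give no read totals, so depth is unknown. Of 16 oocyte markers, 15 reached 1 FPKM in every GV library. They summed to 8679 to 15709 FPKM there, to 2945 FPKM in the YAP-null 4-cell library (median 91.7) and to 1842 FPKM in the wild-type one (median 7.73). Of 15 granulosa and cumulus cell markers 5 to 7 reached 1 FPKM in GV libraries, where the list summed to 40.3 to 51.4 FPKM. Inha was at 6.12 to 15.6 FPKM there, Cyp19a1 at 9.51 to 13.6 FPKM, Nr5a2 at 8.30 to 15.4 FPKM and Amh at 3.05 to 4.46 FPKM. Ptx3 and Tnfaip6 were at 0. In 4-cell libraries 1 marker of this list reached 1 FPKM, Nr5a2, which embryos also express, and the list summed to 94.7 (YAP-null) and 181 FPKM (wild-type). Of 11 blood and stroma markers 1 to 2 reached 1 FPKM in GV libraries (sums 12.8 to 26.2), 2 in the YAP-null 4-cell library (sum 41.1) and 5 in the wild-type one (sum 96.8). Pecam1 was at 12.8 to 25.7 FPKM over all libraries, and Lum was at 0 throughout. Haemoglobin genes differed between the YAP-null and wild-type 4-cell libraries. Hba-a1 was at 25.9 and 26.3 FPKM, Hba-a2 at 0.0668 and 26.0 FPKM, and Hbb-b2 at 0 and 15.9 FPKM. The 6 sperm transcripts summed to at most 10.2 FPKM, with Prm1 and Tnp1 at 0. Prm2 was at 2.28 to 10.2 FPKM in GV libraries and at 5.09 (YAP-null) and 0 FPKM (wild-type) in 4-cell libraries.

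The 72 genes together stood at 3162 and 2918 FPKM in YAP-null GV libraries and 2980 and 2880 FPKM in wild-type GV libraries 1 and 2. At the 4-cell stage they stood at 6618 FPKM (YAP-null) and 9139 FPKM (wild-type). As a share of each library's FPKM this was 0.684%, 0.804%, 0.813% and 0.777% in the same order of GV libraries, and 1.72% and 2.07% at the 4-cell stage. With Mir762 left out, the share in YAP-null GV library 1 was 0.845%, so that the order of the GV shares changed. The rise was uneven among the classes. Hnrnp genes summed to 474 to 756 FPKM in the 4 GV libraries and to 2304 and 3544 FPKM in the YAP-null and wild-type 4-cell libraries. Srsf genes summed to 213 to 242 FPKM in GV libraries and to 838 and 1259 FPKM in 4-cell libraries, and Snrp genes to 669 to 1003 and then 2267 and 2660 FPKM. Prpf genes showed 255 to 333 FPKM before and 369 and 477 FPKM after. The Lsm sum (452 to 625 FPKM in GV libraries, 425 and 612 FPKM at the 4-cell stage) and the SF3 sum (468 to 495, then 416 and 588 FPKM) overlapped between the stages. In every class the wild-type 4-cell library had the higher sum of the 2.

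**Figure D1:**
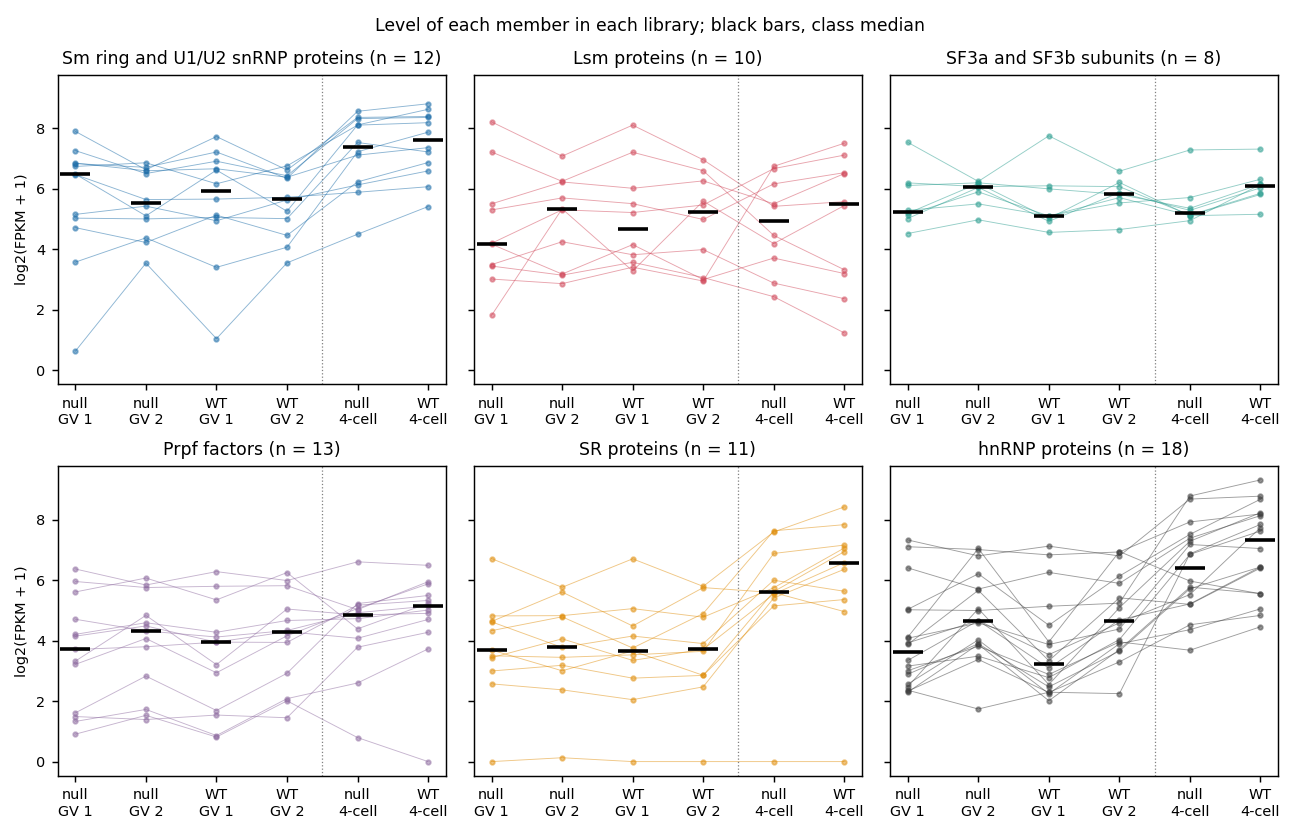
Level of each of the 72 genes, as log2(FPKM + 1), in the 6 libraries (null, YAP-null; WT, wild-type), a panel per class, with the class median as a black bar. Hnrnp and Srsf medians stand higher in both 4-cell libraries than in any GV library, whereas Lsm and SF3 medians do not; the lowest line among the Srsf genes is Srsf12, at or near 0 in all libraries.

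From the GV to the 4-cell stage most of these genes rose, led by hnRNP, SR and Sm proteins, and 4 Lsm genes fell. The stage difference was fitted as log2(FPKM + 1) with genotype as a term (limma, 2 4-cell against 4 GV libraries, Benjamini-Hochberg adjusted p of 0.05 over 11451 genes averaging at least 1 FPKM). Of 71 of the 72 genes that passed this filter, 38 were higher at the 4-cell stage, against 28.2% of all genes tested, and 4 were lower, against 27.8%. Both 4-cell libraries lay above all 4 GV libraries for 47 of the 71 (35.1% of all genes) and below them for 7 (35.2% of all genes). The median stage difference was 1.52 among the 71 genes and -0.10 among all genes. Within wild-type libraries it was 1.72 and within YAP-null libraries 1.10, beside -0.14 and -0.00 for all genes.

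The call rests on 2 4-cell libraries of different genotype: leaving out the wild-type one left 13 genes higher and 0 lower, and leaving out the YAP-null one left 24 and 2, with the lone 4-cell sample assumed to vary like the other groups. The 13 were Hnrnpl, Hnrnpab, Hnrnpm, Hnrnpa0, Srsf1, Srsf5, Srsf6, Srsf11, Snrpb, Snrpf, Lsm12, Prpf4 and Prpf19, and they kept their call in each of the 17 alternatives that gave a test. The GV libraries numbered 1 and 2 differed from each other in both genotypes, so the stage test was repeated with each pair. With those numbered 1 alone 44 genes were higher and 3 lower, and with those numbered 2 alone 38 and 8.

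**Figure D2:**
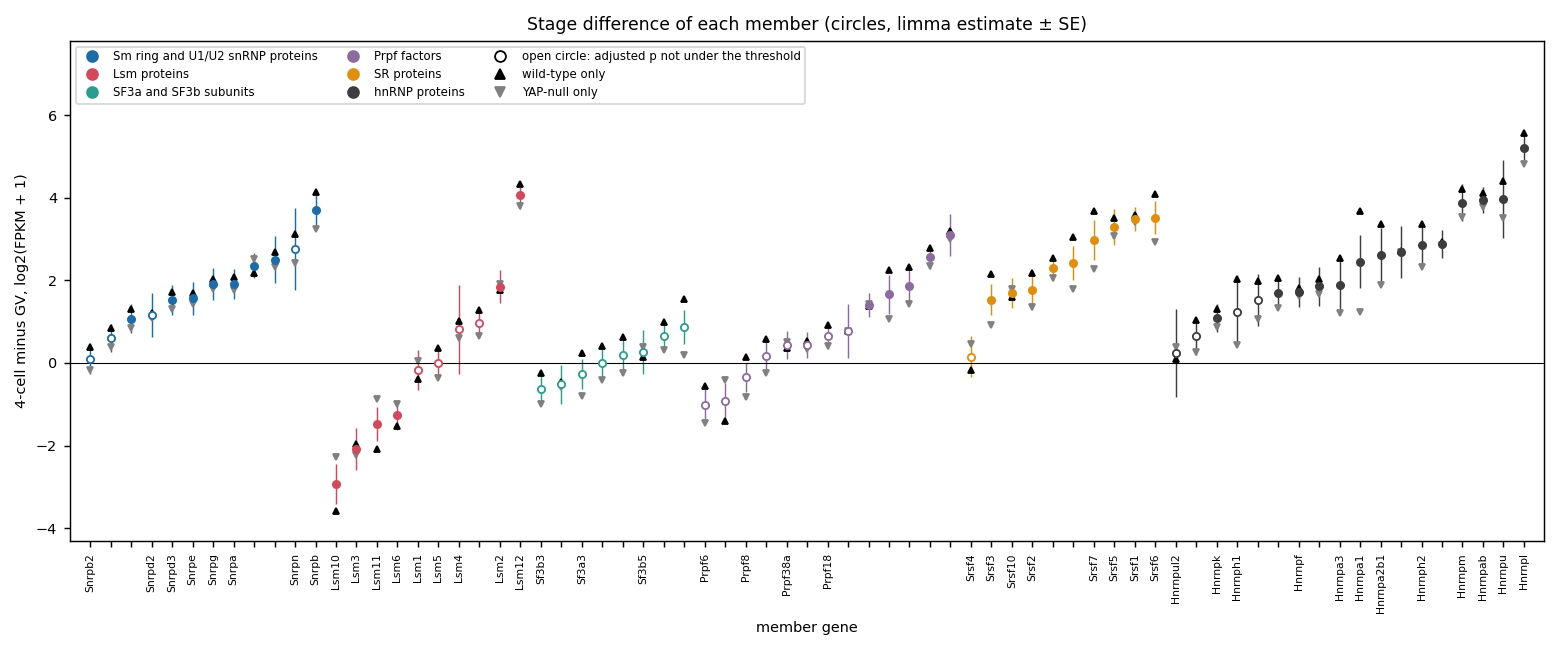
Stage difference (4-cell minus GV, log2(FPKM + 1)) of the 71 genes tested, ordered by size within class, with names for those chosen by the naming rule; circles are limma estimates with the SE as bars, filled where the adjusted p is under 0.05, and triangles give wild-type (upward) and YAP-null (downward) libraries alone. Hnrnpl is highest at 5.20 and Lsm10 lowest at -2.93, and no SF3 gene passed.

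Promoter windows (250 bases before to 50 after a start, 300 bases, RefSeq, GRCm38.p6) were available for 62 of the 72 genes, in 84 of the table's 32851 windows. They were searched on both strands for 5 short motifs. The ETS motif CCGGAAG was in 29.8% of the 84 windows and in 8.86% of all windows, and CCAAT in 47.6% and 37.4%. The NRF1 core GCGCATGC was in 5.95% and 2.71%, and TATAAA in 8.33% and 13.6%. GGAATG, the core bound by TEAD, the DNA-binding partner of YAP, was in 7.14% of the windows and in 14.7% of all. It was found for 6 genes, Hnrnpl, Prpf3, Prpf4, Sf3a1, Snrpb2 and Snrpn. By gene, the ETS motif was in 5 of 6 SF3 and 2 of 17 Hnrnp genes with a window, and CCAAT in 2 of 6 and 13 of 17. The windows of 4 genes with the most different courses are shown, 5′ to 3′ on the gene's strand, with every match to these motifs, on either strand, in capitals: Hnrnpl, the steepest rise (chr7:28810640-28810939, + strand); Hnrnpa1, the largest gap between the 4-cell libraries (chr15:103240147-103240446, + strand); Srsf7, the SR gene with the largest such gap (chr17:80207256-80207555, - strand); and Lsm10, the steepest fall (chr4:126096403-126096702, + strand).
Hnrnpl: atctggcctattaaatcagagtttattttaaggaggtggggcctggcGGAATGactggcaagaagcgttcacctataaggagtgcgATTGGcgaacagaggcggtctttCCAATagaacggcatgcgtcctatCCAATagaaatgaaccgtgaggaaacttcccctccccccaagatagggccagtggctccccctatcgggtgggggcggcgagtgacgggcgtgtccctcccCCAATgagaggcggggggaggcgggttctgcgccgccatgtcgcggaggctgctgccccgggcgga
Hnrnpa1: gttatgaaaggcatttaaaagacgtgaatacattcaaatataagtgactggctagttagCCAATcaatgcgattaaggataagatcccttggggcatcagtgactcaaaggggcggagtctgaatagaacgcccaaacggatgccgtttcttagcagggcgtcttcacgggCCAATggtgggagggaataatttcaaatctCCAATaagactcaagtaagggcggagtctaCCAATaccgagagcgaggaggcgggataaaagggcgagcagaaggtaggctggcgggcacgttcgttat
Srsf7: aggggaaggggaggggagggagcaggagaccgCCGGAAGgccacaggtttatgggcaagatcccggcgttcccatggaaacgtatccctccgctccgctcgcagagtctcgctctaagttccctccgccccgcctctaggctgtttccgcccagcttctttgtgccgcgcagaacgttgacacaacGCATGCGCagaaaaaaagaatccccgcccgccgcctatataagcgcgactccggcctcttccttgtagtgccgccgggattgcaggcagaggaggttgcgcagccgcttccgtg
Lsm10: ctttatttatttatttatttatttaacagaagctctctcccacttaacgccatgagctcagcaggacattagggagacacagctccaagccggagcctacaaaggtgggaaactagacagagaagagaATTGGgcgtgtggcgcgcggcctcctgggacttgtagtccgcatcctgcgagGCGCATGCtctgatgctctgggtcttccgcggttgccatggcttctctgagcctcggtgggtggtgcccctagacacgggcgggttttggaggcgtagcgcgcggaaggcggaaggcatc
The Hnrnpl window holds 1 GGAATG and 4 CCAAT matches (1 as ATTGG), that of Hnrnpa1 4 CCAAT matches, that of Srsf7 CCGGAAG and the reverse complement of the NRF1 core, and that of Lsm10 ATTGG and the NRF1 core. A match is a description of letters, and binding was not measured here.

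Among Sm ring and U1/U2 snRNP genes, 8 of 12 rose with stage, none fell, and the median difference was 1.74. Snrpb, the SmB core protein of the ring (chromosome 2, 129997372 to 130005100, mm9 throughout), was at 10.9 and 19.8 FPKM in YAP-null GV libraries 1 and 2, 9.58 and 15.8 FPKM in wild-type GV libraries 1 and 2, and 149 (YAP-null) and 233 FPKM (wild-type) in 4-cell libraries. Both 4-cell values exceeded every GV value, and the difference was 3.69 ± 0.423 (SE, limma adjusted p = 0.000837). Its paralogue Snrpn, the SmN protein encoded at an imprinted locus, was at 0.550, 10.6, 1.06, 10.7, 21.6 and 41.6 FPKM in the same order. Its GV values split by library number, not by genotype, and its difference of 2.76 ± 0.991 did not pass (limma adjusted p = 0.0527).

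The most abundant Sm genes were Snrpg, Snrpd2 and Snrpe, all of the ring. Snrpg, SmG, was at 80.3 to 148 FPKM in GV libraries and at 377 and 448 FPKM in the YAP-null and wild-type 4-cell libraries, a difference of 1.91 (limma adjusted p = 0.00746). Snrpe, SmE, was at 85.4 to 153 and then 319 and 327 FPKM. Snrpd2, SmD2, was at 97.5 to 238 and then 328 and 335 FPKM, and with a GV spread that wide its difference of 1.16 did not pass (limma adjusted p = 0.106). Snrpf, SmF, had the narrowest GV spread of the class, 31.1 to 32.3 FPKM, against 184 and 148 FPKM at the 4-cell stage. In FPKM as deposited Snrpf was the class member higher in the YAP-null embryo library, whereas 5 of 12 were after rescaling to the same FPKM sum. Among U1 proteins, Snrpa was at 17.7 to 34.0 and then 74.0 and 116 FPKM, and Snrpc at 33.4 to 97.3 and then 276 and 395 FPKM. The U2 protein Snrpb2 stayed between 49.0 and 87.7 FPKM in all 6 libraries, with a stage difference of 0.10.

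Lsm genes went in both directions, with 2 of 10 higher, 4 lower and a median of -0.09. The falls included both genes whose products replace SmD proteins in the U7 snRNP, which processes histone mRNA. Lsm10 (chromosome 4, 125773897 to 125775828) was at 148 and 75.0 FPKM in YAP-null GV libraries and 147 and 96.0 FPKM in wild-type GV libraries, and at 21.0 and 9.02 FPKM in the YAP-null and wild-type 4-cell libraries. Every GV value exceeded both 4-cell values, and Lsm10 fell by 2.93 on the log2 scale (SE 0.482, limma adjusted p = 0.0031). Lsm11, its partner (chromosome 11, 45741771 to 45758437), was at 9.90, 7.85, 10.9 and 7.38 FPKM in the GV libraries and at 4.40 and 1.35 FPKM after. It fell by 1.47 (SE 0.407, limma adjusted p = 0.0221). Both were lower in the wild-type than in the YAP-null 4-cell library. Their calls were lost without the wild-type 4-cell library, and that of Lsm11 also without wild-type GV library 1.

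Lsm3, a subunit shared by the nuclear U6 ring and the cytoplasmic decapping ring, was the most abundant Lsm gene in oocytes. It was at 296 and 134 FPKM in YAP-null GV libraries and 275 and 123 FPKM in wild-type GV libraries and at 41.8 and 46.7 FPKM in 4-cell libraries, so that it fell by 2.09 on the log2 scale (limma adjusted p = 0.0136). The call of Lsm3 was lost in 3 of 17 alternatives. Lsm6, of the same rings, fell by 1.26, from 10.3 to 18.04 FPKM in GV libraries to 6.38 and 4.16 FPKM, but lost its call in 7 of 17 alternatives. Lsm1, the subunit particular to the decapping ring, was at 6.999 to 16.99 FPKM in GV libraries and at 12.1 and 8.19 FPKM after, a difference of -0.17. The nuclear counterpart of Lsm1, Lsm8, was not analysed here. Lsm2 rose by 1.85, to 101 and 138 FPKM from 17.4 to 43.2 FPKM. Lsm12, an Lsm-domain protein outside the snRNP rings (chromosome 11, 102024803 to 102046570), rose most: from 7.09 and 6.29 FPKM in YAP-null GV libraries and 9.62 and 6.73 FPKM in wild-type GV libraries to 106 and 181 FPKM. That is 15.9-fold within YAP-null and 22.1-fold within wild-type libraries, a difference of 4.06 ± 0.327 (SE, limma adjusted p = 0.000295).

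No SF3 gene passed the stage test in either direction, and the class median was 0.10. These subunits hold the branch point within the U2 snRNP. Sf3b5, a small SF3b subunit, was the most abundant, at 74.8 to 215 FPKM in GV libraries and 155 and 158 FPKM after. Sf3b1, which contacts the branch point and is often mutated in blood cancers, was at 33.5 to 45.3 FPKM in GV libraries and at 51.4 (YAP-null) and 78.7 FPKM (wild-type) in 4-cell libraries. Sf3b3 was at 66.2 to 72.3 FPKM and then 34.0 and 56.8 FPKM. Sf3a3 was at 55.3 to 72.5 FPKM and then 40.0 and 70.1 FPKM. The stage difference was above 0 for 6 of the 8 genes within wild-type and for 3 within YAP-null libraries, with class medians of 0.33 and -0.32. The sign of the class median over both genotypes also depended on scaling, at -0.084 after quantile normalization.

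Among Prpf genes 5 of 13 rose and none fell, with a median of 0.66. Prpf4b, a kinase of the tri-snRNP, was at 2.06, 6.09, 2.22 and 6.57 FPKM in GV libraries (YAP-null 1, YAP-null 2, wild-type 1, wild-type 2) and at 36.4 and 44.0 FPKM in the YAP-null and wild-type 4-cell libraries, a difference of 3.10 (limma adjusted p = 0.00322). Prpf4, of the U4/U6 particle, was at 1.62 to 1.91 FPKM and then 12.8 and 18.4 FPKM, a difference of 2.56. Prpf19, the scaffold of the Prp19 complex, was at 12.1 to 14.5 and then 35.1 and 39.1 FPKM, a difference of 1.40. Prpf39, a relative of U1-associated factors, rose by 1.66, from low GV values of 0.817 to 3.23 FPKM to 5.06 and 12.2 FPKM. It lost its call in 4 of 17 alternatives, among them that with no filter on low values. The abundant members of the class did not pass. Prpf38a was at 56.2 to 81.6 and then 96.3 and 88.8 FPKM. Prpf8, the large protein at the catalytic core, was at 53.0 to 61.0 FPKM in GV libraries and at 31.5 and 60.7 FPKM in the YAP-null and wild-type 4-cell libraries. Prpf6, a bridge of the tri-snRNP, was at 39.7 to 75.1 and then 19.9 and 36.5 FPKM, both below every GV value, with a difference of -1.01 (limma adjusted p = 0.0816). Prpf40b reached at most 3.02 FPKM, and its wild-type 4-cell value was listed as 0.

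Nearly all SR genes rose: 9 of the 10 tested passed, none fell, and the median was 2.36. Srsf12 was listed at 0 in 5 libraries and at 0.0926 FPKM in YAP-null GV library 2, so it was not tested. Srsf1, which directs exon inclusion through enhancers and is a known oncoprotein (chromosome 11, 87860875 to 87867259), was at 10.3 and 9.90 FPKM in YAP-null GV libraries, 10.5 and 11.5 FPKM in wild-type GV libraries, and 117 and 142 FPKM in the YAP-null and wild-type 4-cell libraries. The 4 GV values were close to each other, and the difference was 3.49 ± 0.29 (SE, limma adjusted p = 0.000321). Srsf6 (chromosome 2, 162757244 to 162762856) was at 4.94, 4.18, 3.13 and 4.54 FPKM and then 41.5 and 81.1 FPKM, a difference of 3.52 ± 0.39 (limma adjusted p = 0.000749). Srsf5 was at 12.5 to 28.8 and then 197 and 227 FPKM, a difference of 3.29. Srsf2, a nuclear SR protein and speckle marker, was the most abundant of the class in GV oocytes, at 53.3 to 104 and then 192 and 341 FPKM. The exception was Srsf4, at 21.4 to 52.9 FPKM in GV libraries and 47.1 and 30.1 FPKM after, a difference of 0.15 (limma adjusted p = 0.810).

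Among Hnrnp genes 14 of 18 rose, none fell, and the median was 2.17. Hnrnpl, a binder of CA-rich RNA that represses and activates exons (chromosome 7, 29595909 to 29607285), had the largest rise of all 72 genes. It was at 4.14 and 2.34 FPKM in YAP-null GV libraries and 3.90 and 3.75 FPKM in wild-type GV libraries, and at 116 and 228 FPKM in the YAP-null and wild-type 4-cell libraries. This was 35.9-fold within YAP-null and 59.7-fold within wild-type libraries, a difference of 5.20 ± 0.36 (SE, limma adjusted p = 0.000192). Hnrnpab, which binds A- and U-rich RNA, became the most abundant of the 72 genes, at 30.9 to 36.8 FPKM in GV libraries and 439 and 635 FPKM after, a difference of 3.95 (limma adjusted p = 0.00029). Its locus shares 46.7% of its span with Agxt2l2, which was at 0.428 to 7.85 FPKM.

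Hnrnpm, a splicing regulator of the nuclear matrix, was at 7.92 and 10.2 FPKM in YAP-null GV libraries and 5.85 and 15.4 FPKM in wild-type GV libraries and at 115 and 196 FPKM in 4-cell libraries, a difference of 3.87. Hnrnpu, a scaffold protein that ties RNA to chromatin, was at 4.58, 32.3, 4.84 and 33.0 FPKM in GV libraries (YAP-null 1, YAP-null 2, wild-type 1, wild-type 2) and at 155 and 299 FPKM after. Its GV values again split by library number, and its difference of 3.96 had an SE of 0.944 (limma adjusted p = 0.0127). The abundant Hnrnpf was at 110.4 to 159.6 FPKM and then 409 and 437 FPKM, and Hnrnpk, a binder of C-rich RNA, at 113 to 137 and then 242 and 290.4 FPKM. Of the H subfamily, which binds G-rich RNA, Hnrnph2 rose by 2.85, from 4.54 to 13.9 FPKM up to 51.6 and 85.5 FPKM. Hnrnph1 was at 13.7, 49.7, 9.09 and 41.7 FPKM and then 35.7 and 83.5 FPKM, and its difference of 1.23 did not pass (limma adjusted p = 0.228).

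At the 4-cell stage most of the genes were lower in the library labelled YAP-null, where Yap1 was still listed at 33.3 FPKM, than in the wild-type one (Yap1 89.7 FPKM). With 1 library per genotype there is no test, and the differences are between these libraries. Of 70 genes averaging at least 1 FPKM, 59 were lower in the YAP-null library by any amount, against 47.8% of the 10854 genes compared. The median difference of the 70 was -0.50 against 0.05 for all. The count lower by any amount depended on scaling: it was 49 after rescaling to the same FPKM sum and 52 after quantile normalization. At least 2-fold lower were 10 (14.3%, all genes 9.97%) and at least 2-fold higher 2 (2.86%, all genes 17.7%), the 2 U7 genes Lsm11 and Lsm10. After quantile normalization these counts were 9 and 0. The deposited lower and upper bounds did not overlap for 45 lower genes (all genes, 30.6%) and 8 higher genes (all genes, 34.6%). Those bounds cover error within a library alone, and the deposited value lay within them for 54 of the 72 genes in the YAP-null and 49 in the wild-type 4-cell library. Rescaling the libraries to the same FPKM sum moved the median of all genes to 0.23 and that of the 70 genes to -0.31. The gap between the medians was -0.56 as deposited, -0.45 with no filter on low values and -0.35 after quantile normalization.

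By class the median was -0.73 for Hnrnp, -0.71 for SF3, -0.55 for Srsf, -0.39 for Prpf, -0.26 for Lsm and -0.25 for Snrp genes. As deposited, all 8 SF3 genes, 15 of 18 Hnrnp, 8 of 10 Srsf, 11 of 12 Prpf, 11 of 12 Snrp and 6 of 10 Lsm genes were lower. With the libraries rescaled to the same FPKM sum the numbers were 6 SF3, 14 Hnrnp, 8 Srsf, 9 Prpf, 7 Snrp and 5 Lsm genes. Quantile normalization also left 7 of 12 Snrp genes lower, with 7 of 8 SF3 genes. After rescaling to the same FPKM sum all 6 class medians were still below 0, that of Snrp genes at -0.05 and that of Lsm genes at -0.07. The 10 genes lower by at least 2-fold, 14.3% against 9.97% of all genes, are given with their values. Their number was 7 after rescaling to the same FPKM sum. Hnrnpa1, which blocks exon inclusion and opposes SR proteins (chromosome 15, 103070863 to 103075386), stood at 45 (YAP-null) and 212 FPKM (wild-type), a difference of -2.21. Its relatives Hnrnpa2b1 (182 and 408 FPKM, -1.16) and Hnrnpa3 (36.1 and 85.8 FPKM, -1.23) and the G-run binder Hnrnph1 (35.7 and 83.5 FPKM, -1.20) were also in this group. So were Srsf7 (48.2 and 122 FPKM, -1.32), Srsf3 (52.7 and 133 FPKM, -1.32) and Srsf9 (45.5 and 94.5 FPKM, -1.04). The others were Sf3b4 (29.9 and 69.7 FPKM, -1.20), Lsm4 of the U6 ring (17.3 and 42.6 FPKM, -1.26) and Prpf39 (5.06 and 12.2 FPKM, -1.13). Lsm5, at 44.4 and 89.7 FPKM, was 2.02-fold apart in FPKM but just short of the 2-fold limit on the log2(FPKM + 1) scale used for the counts.

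In the other direction Lsm11 stood at 4.40 (YAP-null) and 1.35 FPKM (wild-type), a difference of 1.20, and Lsm10 at 21.0 and 9.02 FPKM, a difference of 1.14. Next came Srsf4 (47.1 and 30.1 FPKM, 0.63), Lsm6 (6.38 and 4.16 FPKM, 0.52), Lsm1 (12.1 and 8.19 FPKM, 0.51), Hnrnpul2 (61.6 and 45.8 FPKM, 0.42) and Srsf10 (62.8 and 48.6 FPKM, 0.36). Of the 16 oocyte markers, 14 were at least 2-fold higher in the YAP-null 4-cell library, with a median difference of 2.99. Among 14 cleavage-stage markers compared, 6 were at least 2-fold lower there and 0 higher. The part of these marker differences in the splicing gene values was not tested.

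**Figure D3:**
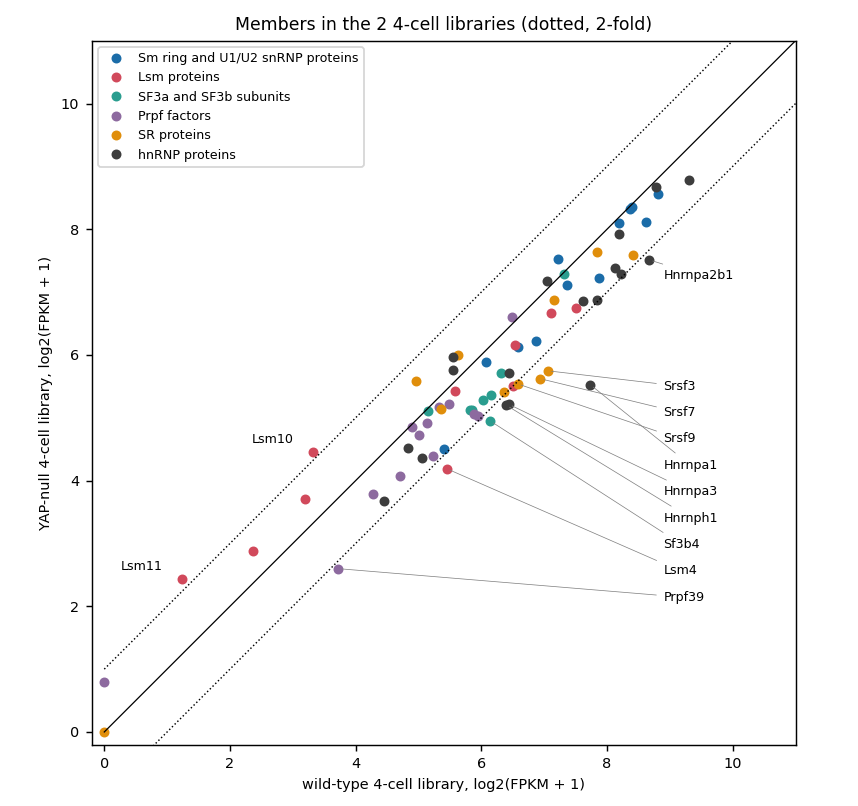
Level of each gene in the wild-type (x axis) and YAP-null (y axis) 4-cell library, both as log2(FPKM + 1), coloured by class; the solid line marks equal levels and the dotted lines a 2-fold difference. Most points lie under the solid line; 10 named genes lie on or under the lower dotted line and Lsm10 and Lsm11 above the upper one.

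Levels of Hnrnpa1 and Hnrnpa3 depend on how the authors' counting split fragments between gene models that share a locus. The models Gm10052 and Gm5643 cover 91.8% and 99.5% of the Hnrnpa1 span, and Gm10052 alone was listed at 287 and 694 FPKM in the YAP-null and wild-type 4-cell libraries. Summed over the 3 models the values were 332 and 906 FPKM, a difference of -1.45 in place of -2.21. In GV libraries the sums were 61.2 and 102 FPKM (YAP-null) and 51.1 and 97.8 FPKM (wild-type). For Hnrnpa3, Gm6793 covers 63.7% of the span, and the sums were 248 and 612 FPKM in 4-cell libraries, a difference of -1.30. Both genes stayed at least 2-fold lower in the YAP-null 4-cell library with their neighbours added. Many genes of these families have processed pseudogenes elsewhere in the genome, and reads shared with them cannot be placed from the tables.

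In GV oocytes none of the set passed the test of genotype. Of 71 genes tested 0 passed (limma, adjusted p of 0.05), against 0% of the 10462 genes tested in all. At an unadjusted limma p under 0.05 there were 22 genes and 0 of the 71, whose smallest p was 0.282. The 22 are well under a 0.05 share of the 10462 genes, so these p-values were conservative. This fit had no term for library number, and the difference between numbers 1 and 2 counted as spread. The lack of calls therefore does not show equal levels. With library number as a block 2 genes passed in all and 0 of the 71. The median difference (YAP-null minus wild-type) was 0.06 over the 71 genes, 0.11 within number 1 and -0.02 within number 2. It was -0.073 after rescaling to the same FPKM sum, where the median of all genes was -0.13. Within 0.5 of 0 in both numbers were 58 of the 71 genes. The share of all genes was not computed, so this count does not set them apart. Both YAP-null values lay above both wild-type values for 3 genes, Sf3a3, Srsf11 and Hnrnpk (5.1% of all genes tested), and below both for 3, Prpf19, Srsf1 and Hnrnpab (5.68% of all genes). Both shares of the 71 genes, 4.23%, were near the background.

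The GV difference ran from 0.39 for Hnrnph1 to -0.86 for Lsm4. Lsm4 was at 2.52 and 39.5 FPKM in YAP-null GV libraries and 8.74 and 47.3 FPKM in wild-type GV libraries 1 and 2, which is -1.47 within number 1 and -0.25 within number 2. Lsm2 was at 17.4 and 38.5 FPKM against 36.2 and 43.2 FPKM, -1.02 and -0.16. These were the only 2 of the genes at least 2-fold apart between genotypes within number 1, and there were 0 within number 2. The shares of all genes past this limit were not computed. The next lowest were Snrpa (-0.32), Sf3b5 (-0.28), Lsm5 (-0.27) and Lsm12 (-0.24). On the other side Snrpb2 was at 87.7 and 49.0 FPKM in YAP-null GV libraries and 49.6 and 51.8 FPKM in wild-type libraries (0.37), followed by Snrpd3 (0.34), Hnrnph2 (0.33), Hnrnpa2b1 (0.30) and Prpf18 (0.29). None passed (limma, adjusted p near 1.00 for each).

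More of the genes were 2-fold apart between library numbers than between genotypes. At least 2-fold higher in the library numbered 2 than in that numbered 1 were 15 genes within YAP-null and 22 within wild-type, 13 of them in both. At least 2-fold lower were 4 and 5, 4 of them in both. Together this was 26.8% of the 71 genes in YAP-null, as 26.7% of all genes tested, and 38.0% in wild-type, where all genes gave 23.3%. Hnrnpul2, a relative of Hnrnpu, was at 16.3 and 131 FPKM in YAP-null GV libraries and 14.5 and 122 FPKM in wild-type libraries 1 and 2, so its stage difference of 0.24 covers GV values on both sides of the 4-cell ones (61.6 and 45.8 FPKM). The Hnrnp median difference between numbers was 0.91 in YAP-null and 1.13 in wild-type oocytes, and the Snrp median -0.19 and -0.16. The labels do not say what the numbers stand for, and each group compared within a number is 1 library.

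**Figure D4:**
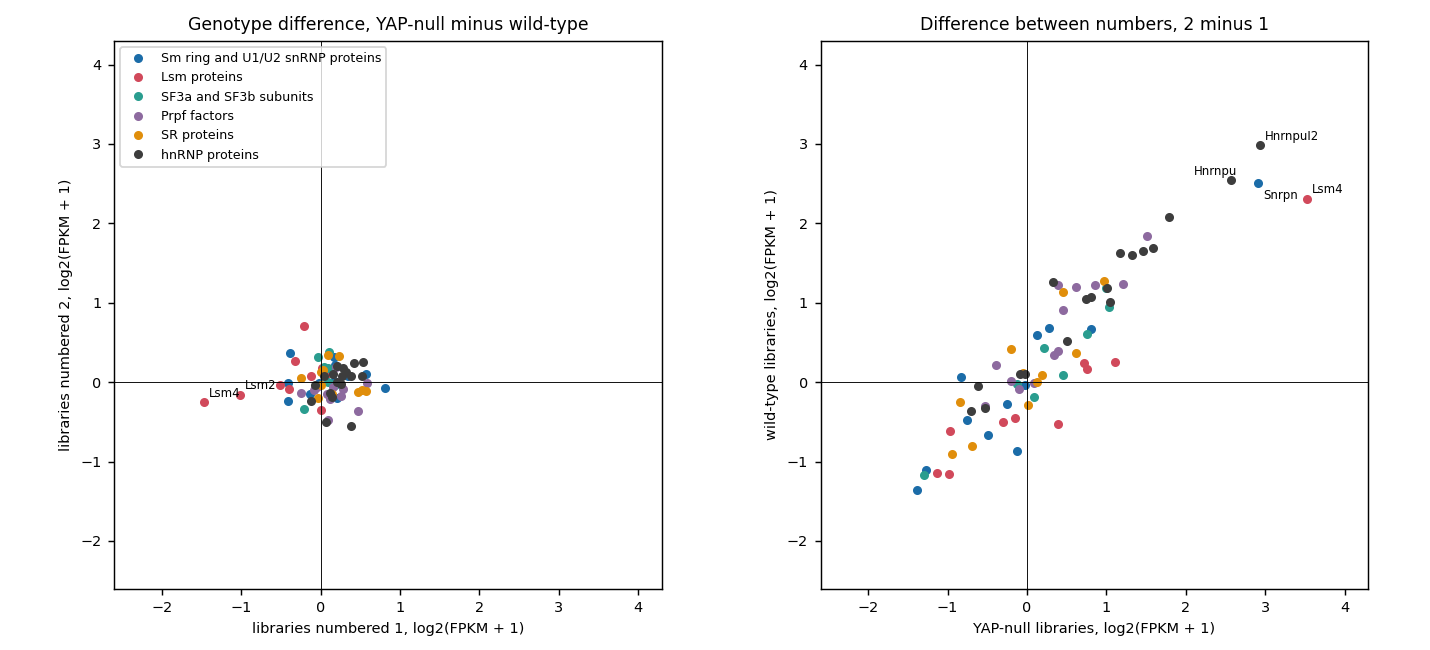
GV oocytes, 1 point per gene, log2(FPKM + 1) differences. Left, YAP-null minus wild-type within the libraries numbered 1 (x) and 2 (y), where all but Lsm4 and Lsm2 lie within 1 of 0 on both axes; right, number 2 minus number 1 within YAP-null (x) and wild-type (y), where Lsm4, Hnrnpul2, Snrpn and Hnrnpu lie above 2 on both axes.

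Other splicing genes, taken as 7 lists, showed which neighbours of these families moved with stage (limma calls, higher and lower, against 28.2% and 27.8% of all genes). The largest shift was among snRNP assembly factors, with 11 of 15 higher, 1 lower and a median of 3.22. Wdr77, a partner of the methyltransferase Prmt5 that modifies Sm proteins, was at 0.303 to 0.607 FPKM in GV libraries and at 67.8 and 78.5 FPKM in the YAP-null and wild-type 4-cell libraries (5.66). Gemin5, which recognises snRNA in the SMN complex, was at 1.79 to 2.01 and then 54.3 and 82.1 FPKM (4.56). Tgs1, which forms the snRNA cap, was at 0.132 to 1.05 and then 18.4 and 20.2 FPKM (3.79), and Gemin8 fell by 1.82, from 10.8 to 16.6 FPKM to 4.43 and 2.22 FPKM. None of the 15 was 2-fold apart between the 4-cell libraries.

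SR protein kinases and SR-related proteins gave 6 higher and 1 lower of 16. Tnpo3, the importin that carries SR proteins into the nucleus, rose by 4.98 to 76.5 and 87.0 FPKM, and the SR-like Tra2a rose by 3.96. The exon junction complex gave 4 higher and 0 lower of 10, with Magoh, one of its core subunits, at 130 to 301 and then 524 and 548 FPKM. Branch point and 3′ splice site factors gave 5 and 1 of 14, the fall being that of U2af1l4, a relative of the small U2AF subunit, which fell by 2.16. Other snRNP proteins gave 8 and 4 of 21: Snrnp35, of the U11/U12 snRNP, was at 0 to 0.552 FPKM and then 61.9 and 38.5 FPKM, while Lsm14b, of RNA granules, fell by 3.72, from 383 to 480 FPKM to 44.5 and 23.1 FPKM. The Prp19 complex and catalytic step factors gave 9 and 1 of 24. Other splicing regulators gave 12 and 5 of 26: Syncrip rose by 5.48 and Rbmx by 5.14, whereas Esrp1, an epithelial splicing regulator, fell by 3.17, and Ptbp2, the neural relative of Ptbp1, by 2.60.

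Between the 4-cell libraries, at least 2-fold higher and lower in YAP-null were 1 and 0 of 14 branch point factors, 1 and 2 of 21 other snRNP proteins, 0 and 1 of 24 Prp19 complex and catalytic factors, 1 and 1 of 16 SR kinases and SR-related proteins, 0 and 0 of 10 exon junction genes and 2 and 3 of 27 other regulators, beside 17.7% higher and 9.97% lower of all genes compared. Ptbp2 (11.7 against 1.85 FPKM), Srpk2, a kinase of SR proteins (11.7 against 2.18 FPKM), Lsm14a (180.3 against 48.9 FPKM) and U2af1l4 (39.6 against 11.5 FPKM) were among those higher in the YAP-null library. Among those lower were Eftud2, a GTPase of the U5 snRNP (15.6 against 40.9 FPKM), Bud31 (26.8 against 68.2 FPKM) and Clk1, a kinase of SR proteins (15.1 against 32.7 FPKM).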

How the data were processed

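Polyadenylated RNA of 6 pools of oocytes or embryos had been sequenced from paired ends. Each deposited table lists FPKM per gene with a lower and an upper FPKM bound, as the file headers state. CASAVA 1.8 and TopHat were used with mm9, per the submitters' processing notes. Neither quantifier nor annotation is given in the sources used here. The tables hold no counts, so depth is unknown.

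FPKM was used as deposited, summed per symbol, with 1 failed line left out, and compared as log2(FPKM + 1), which understates changes of low genes, over genes averaging at least 1 FPKM. GV genotype (2 against 2) and stage (2 against 4, genotype as a term) were tested with limma 3.58.1 in R 4.3.3 (trend, two-sided, Benjamini-Hochberg at 0.05 over all genes). The code of the stage fit was run on simulated data with independent spread, and its mean estimates were checked. This check did not cover the GV test or spread shared between libraries. The labels do not say that libraries came from separate animals, so p-values measure the spread between these samples, which may be technical. At the 4-cell stage a 2-fold size rule replaced a test.

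The genes, the 6 classes, the 5 marker lists and the 7 splicing lists were chosen with earlier results of these data known. Named were the 3 most abundant genes of each class, the 6 largest differences per direction and comparison at a mean of at least 5 FPKM, up to 8 stage calls per direction, fixed paralogue pairs and up to 3 genes per direction of each splicing list; other examples were chosen after their values were seen. Alternatives were other pseudocounts (0.1 and 5 FPKM), filters, scalings, designs and fold limits, and leaving out each library. The stage tests against GV libraries of a single number were added after seeing the data. Promoter windows are RefSeq sequences in GRCm38.p6, and none of their coordinates was mixed with the mm9 loci. The values of 1 gene are not reported here, though it is in the counts.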

Additional observations from a re-analysis of the deposited data

Results flagged for a closer look

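Genotype differences of 3 genes had opposite signs at the 2 stages: in GV oocytes both YAP-null libraries lay above both wild-type libraries, and at the 4-cell stage the YAP-null library lay below the wild-type one. The 4-cell difference on the log2(FPKM + 1) scale was -0.80 for Sf3a3, -0.26 for Hnrnpk and -0.21 for Srsf11, against GV differences of 0.25, 0.17 and 0.29. Among 8915 genes tested in oocytes and compared at the 4-cell stage, 190 (2.13%) showed this pattern, and 232 (2.6%) showed the opposite one. Of the 70 spliceosome and SR protein genes 3 (4.29%) and 0 did. In FPKM as deposited, however, 59 of the 70 were lower in the YAP-null 4-cell library whatever their GV difference, and 49 were after rescaling to the same FPKM sum. The deposited 4-cell bounds of Srsf11 overlapped, at 31.7 to 37.3 FPKM (YAP-null) and 37.2 to 42.8 FPKM (wild-type). The difference between the stages was not tested. This pattern was read in FPKM as deposited and was not counted after rescaling. YAP-null GV library 1 had an FPKM sum of 462324, against 366398 and 370735 in the wild-type GV libraries. Rescaling to the same sum lowers its values relative to theirs, so differences as small as these depend on scaling.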

How the results depend on the processing

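In GV oocytes the number of spliceosome and SR protein genes past the limma test stayed 0 in each alternative run. Over all genes it was 2 with a replicate block and 2 to 7 on leaving out each library. Libraries of the same number deviated together from their group means (r = 0.849 across 10462 genes, which are not independent replicates), but with 2 pairs and no label for the number they share only a number. The GV median of 0.06 became -0.073 after rescaling to the same FPKM sum and ranged from -0.091 to 0.29 on leaving out each library. No paired analysis was possible for stage because the titles of the 4-cell libraries carry no replicate number.

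For stage, genes higher (38) ranged from 13 to 38 and genes lower (4) from 0 to 4 on leaving out each library. The lower count was 2 in a contrast of 4 groups, where 28 were higher, and 8 against GV libraries numbered 2 alone. In that comparison Hnrnpul2 reversed to -1.24; its GV values differ by number. Over the 42 called genes and 17 alternatives with a test, 83 calls were lost; among the genes chosen by the naming rule 53 calls were lost and 13 gained. For other changes the cause was not tested.

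At the 4-cell stage the count of genes lower (10) was 1 by a 4-fold and 33 by a 1.5-fold rule, and the count higher (2) was 0 by a 4-fold rule, 1 at a mean of at least 5 FPKM, 0 with a pseudocount of 5 FPKM and 0 after quantile normalization. The median of -0.50 moved to -0.31 after rescaling to the same FPKM sum. With 1 library per genotype and depth unknown, no replicate error can be given there.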
